A study of Homo sapiens with 6 samples.

Results

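The 10 genes described here encode AP-1 subunits (JUN, JUNB, JUND, FOSB, FOSL1 and FOSL2), MYC, and the stress-response factors ATF3, ATF4 and DDIT3. They were chosen by gene symbol, and all 10 were found among the 11593 gene symbols listed, as 28 transcript rows, all protein coding. The study used SK-Hep1, a human liver cancer line, in 2 groups of 3 libraries. The first group was labelled as chromatin isolation by RNA purification (ChIRP) with the complete SNHG10 probe set; ChIRP probes are antisense oligonucleotides, here against the long noncoding RNA SNHG10. The second was labelled as ChIRP with LacZ control probes, which are directed at a bacterial gene. No genotype, drug or time point was named, and the labels name SK-Hep1 for all 6 libraries. The series set out to find the mRNAs that come down with SNHG10, but its extraction protocol speaks of total RNA and names no pull-down, so which RNA fraction the values describe was not settled. Nothing in the labels says that replicates were separate cultures, so the p-values below rest on library-to-library spread that could be technical. SNHG10 itself was not analysed here.

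AP-1 is a dimer of basic leucine zipper (bZIP) proteins. JUN proteins pair with each other or with FOS proteins, FOS proteins need a JUN partner, and the dimer binds DNA at the AP-1 element or, with ATF partners, at the related cyclic AMP response element. Most of these genes are immediate early genes, transcribed within minutes of growth factor or stress signals and encoding mRNAs that decay fast. MYC pairs with MAX at E-box sequences and drives growth genes. In the integrated stress response, phosphorylation of the initiation factor eIF2 favours translation of ATF4, which in turn raises ATF3 and DDIT3, the gene of the pro-apoptotic factor CHOP.

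Elements of the AP-1, cyclic AMP response and E-box types were searched near members' own genes. The stretches around such letters are shown for the members that hold them. RefSeq promoter windows (GRCh38.p14, 250 bases before to 50 after a gene's start) were read for 8 members, as 9 windows, while FOSL1 and MYC were not searched. The motifs were TGANTCA (AP-1), TGANNTCA (response element type) and CACGTG (E-box), on both strands, and no matches overlapped. Capitals mark the match. All stretches read 5′ to 3′ along the gene's strand.
JUN, chr1:58784081-58784140, minus strand: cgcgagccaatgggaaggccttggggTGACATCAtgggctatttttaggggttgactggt
JUND, chr19:18281789-18281848, minus strand: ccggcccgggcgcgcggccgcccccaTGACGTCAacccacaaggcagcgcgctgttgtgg
JUND, chr19:18281643-18281702, minus strand: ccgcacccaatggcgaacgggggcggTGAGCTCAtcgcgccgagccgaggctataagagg
FOSL2, chr2:28392852-28392878, plus strand: gccattgtagTGACTCAtctcgggcag
ATF3, chr1:212565258-212565317, plus strand: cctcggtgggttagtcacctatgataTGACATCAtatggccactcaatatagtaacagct
ATF4, chr22:39520451-39520508, plus strand: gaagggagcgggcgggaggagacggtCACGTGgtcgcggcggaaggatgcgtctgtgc
DDIT3, chr12:57520723-57520764, minus strand: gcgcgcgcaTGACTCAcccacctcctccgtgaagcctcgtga

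The matches began 67 bases before the start in JUN, 200 and 54 before it in JUND, 123 in ATF3, 82 in ATF4 and 241 in DDIT3, and at base 5 from the start in FOSL2. TGANTCA was present for 2 of the 8 members (FOSL2 and DDIT3), TGANNTCA for 3 (JUN, JUND and ATF3) and CACGTG for 1 (ATF4). Of all 35116 windows of that length, 7.71%, 11.5% and 7.26% held these motifs. JUNB and FOSB held none of these letters in the window. A match is a description of the letters, and nothing about binding was measured.

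No member was called higher or lower with SNHG10 probes. The values are FPKM, fragment counts scaled to transcript length and library total, as deposited, summed over the listed transcripts of a gene, and differences are SNHG10 minus LacZ probes on the log2(FPKM + 1) scale. With limma and Benjamini-Hochberg adjustment over 10304 genes, 0 of the 10 members passed an adjusted p of 0.05. The background was 0% of genes called higher and 0% called lower. The members' adjusted p ran from 0.885 to 0.956, and 2 members, FOSB and DDIT3, had an unadjusted p under 0.05, both lower. With the replicate block they were DDIT3 (0.0276, lower) and MYC (0.0322, higher), while FOSB had 0.0839. Of all genes tested 5.42% had one, 2.1% higher and 3.32% lower. In those 2 the SNHG10 libraries lay wholly below the LacZ libraries, while of all genes 7.21% lay wholly below, 4.22% wholly above and 11.4% either way. Of the 10 log2 differences, 8 were negative and 2 positive (JUND and MYC), with a median of -0.16 against -0.05 over all genes, of which 56.7% were negative. The same 8 and 2 were counted after median-ratio scaling, which put the median of all genes at -0.0027.

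FPKM totals ran from 268794 to 272909 in the SNHG10 libraries and from 271354 to 277118 in the LacZ libraries, and the share of transcripts listed at 0 ran from 32.1% to 33.8% and from 30.5% to 32.5%. Read depth is unknown, because values as low as 5e-06 FPKM occur, so no counting interval was computed. Zeros may be failed estimates, because RRM1, a gene needed for DNA synthesis, had a 0 in 1 of the libraries. Lower FPKM also cannot tell fewer cells of a kind from less RNA per cell. Against its label of hepatocellular carcinoma, 2 of 11 hepatocyte markers were read, SERPINA1 at 0 to 1.24 FPKM and CPS1 at 0.505 to 1.53, summing to 1.04 to 1.72 with SNHG10 probes against 1.25 to 2.12 with LacZ probes. The other 9, ALB among them, were not analysed here. All 3 biliary markers were measured, with the keratin KRT19 at 394 to 449 FPKM, SOX9 at 41.4 to 50.6 and KRT7 at 13.9 to 21.6. Of 8 endothelial markers 3 were measured, with ENG at 30.7 to 41.8 FPKM and ROBO4 at 0.805 to 2.01. EGFL7 read 8.30, 7.45 and 8.18 with SNHG10 probes against 25.98, 18.8 and 14.0 with LacZ probes (limma adjusted p = 0.778). The summed levels of these 3 endothelial markers were 42.4 to 51.2 FPKM against 46.45 to 61.85. Of 5 leukocyte markers 2 were measured, summing to 36.8 to 56.1 FPKM in the SNHG10 libraries, against 43.1 to 56.5 in the LacZ libraries, nearly all of it CD68. Of 5 fibroblast markers 4 were measured, summing to 36.8 to 55.8 FPKM against 47.55 to 63.2. Their part in any result below was not tested.

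The most abundant of the 10 were FOSL1, with a mean of 208 FPKM over the 6 libraries, and ATF4, with 196. Only 174 and 188 of the 10304 genes tested had a higher mean. These 2 were not apart from each other, since FOSL1 was the higher one in 4 of 6 libraries. JUN followed at 59.1 FPKM, FOSL2 at 46.6, MYC at 43.4, JUND at 37.3, JUNB at 21.3 and DDIT3 at 19.1, and FOSB at 6.67 and ATF3 closed the order, ATF3 with values from 0 to 5.88. FPKM are per length, so these levels can be set beside each other. The ranges of neighbours in this order were apart at 3 steps, between ATF4 and JUN, between JUN and FOSL2, and between DDIT3 and FOSB. At the other steps they overlapped, and MYC, whose libraries spanned 22.5 to 67.6 FPKM, was above JUND in 4 of 6 libraries and below FOSL2 in 3.

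**Figure D1:**
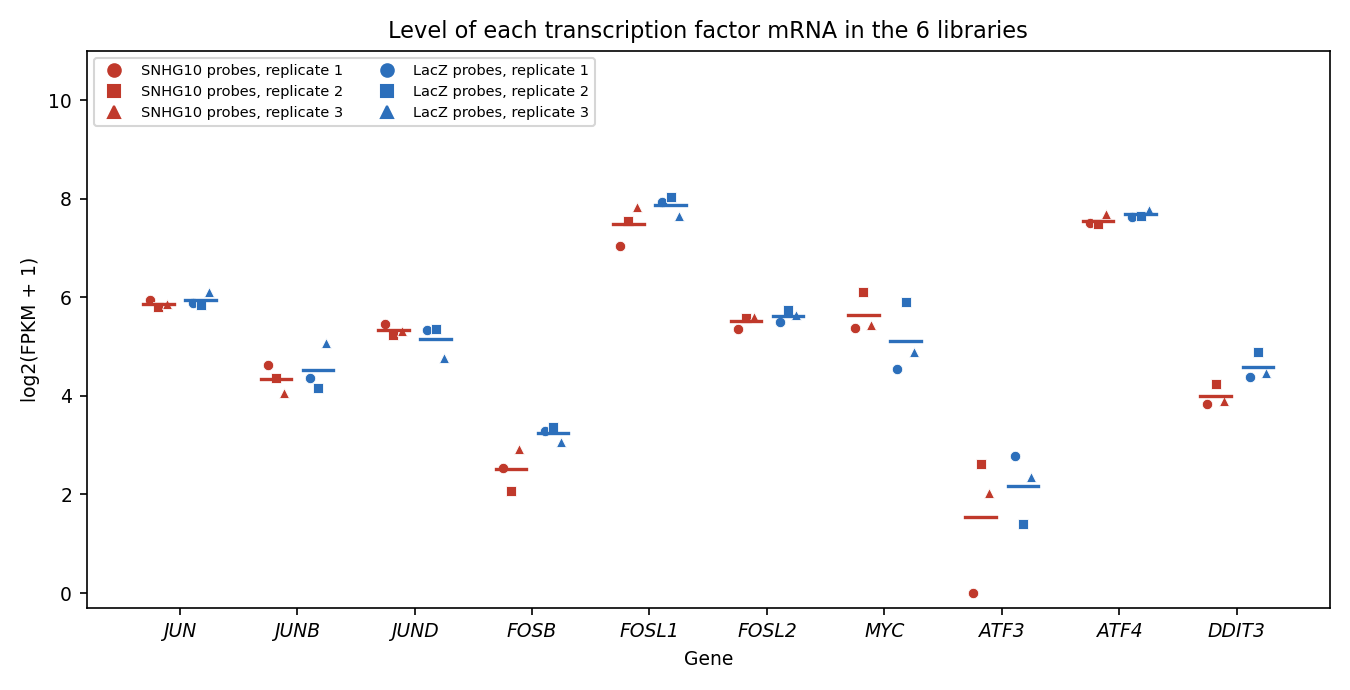
Level of each of the 10 mRNAs as log2(FPKM + 1), with the 3 SNHG10-probe libraries in red left of the 3 LacZ-probe libraries in blue. Marker shapes give the replicate number and horizontal lines the mean of a probe set. FOSB and DDIT3 are the genes whose probe sets do not overlap, and ATF3 was listed at 0 in SNHG10 replicate 1.

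The JUN family did not differ between probe sets beyond the spread of the libraries. JUN (chromosome 1, 59246460 to 59249999, minus strand, hg19), the founding AP-1 subunit and a strong activator, read 60.7, 54.5 and 57.0 FPKM in the SNHG10 libraries, against 58.3, 56.4 and 67.5 in the LacZ libraries. The libraries overlapped, LacZ replicate 3 was the highest, and the log2 difference was -0.08 ± 0.14 (SE; 95% interval -0.40 to 0.24; limma adjusted p = 0.956). Within a probe set JUN had an SD of 0.11 (log2), against a median of 0.31 over the 3891 genes with a mean of 10 to 100 FPKM and of 0.40 over all genes tested.

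JUNB (chromosome 19, 12902310 to 12904129, plus strand), a weaker activator that can hold back JUN, read 23.5, 19.6 and 15.6 FPKM in the SNHG10 libraries, against 19.6, 16.8 and 32.6 in the LacZ libraries. JUND (chromosome 19, 18390570 to 18392432, minus strand), the subunit that is present in resting cells, read 43.1, 36.4 and 38.7 against 39.1, 40.0 and 26.4. In LacZ replicate 3 JUNB stood at its highest and JUND at its lowest, while the other 5 libraries spanned 15.6 to 23.5 for JUNB and 36.4 to 43.1 for JUND. The log2 differences were -0.19 ± 0.29 for JUNB and 0.18 ± 0.20 for JUND (limma adjusted p of 0.947 and 0.932). Without LacZ replicate 3 the differences changed sign in all 3 JUN genes, to 0.0001 for JUN, 0.0847 for JUNB and -0.0092 for JUND.

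The summed level of the JUN genes was 127.4, 110.5 and 111.3 FPKM for the SNHG10 libraries, against 117, 113.3 and 126.5 for the LacZ libraries (two-sided exact permutation p = 0.6, where 0.1 is the smallest that 3 against 3 libraries can give). JUN made up 47.7% to 51.3% of that sum in the SNHG10 libraries, against 49.8% to 53.4% in the LacZ libraries. JUND made up 32.9% to 34.8%, against 33.4% and 35.3% in LacZ replicates 1 and 2 and 20.8% in LacZ replicate 3. JUNB made up 14.0% to 18.5%, against 14.8% to 25.8%. The order JUN, JUND, JUNB thus held in every library but LacZ replicate 3, where JUNB was above JUND.

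Among the FOS genes, FOSB lay lower with SNHG10 probes in every library, without passing the test over all genes. FOSB (chromosome 19, 45971253 to 45978436, plus strand), an inducible partner of JUN proteins, read 4.77, 3.22 and 6.63 FPKM in the SNHG10 libraries, against 8.75, 9.27 and 7.39 in the LacZ libraries. The sets were apart, with 6.63 and 7.39 as the nearest values. Its log2 difference was -0.73 ± 0.31 (95% interval -1.44 to -0.01), with an unadjusted p of 0.048, an adjusted p of 0.885 by limma and an exact permutation p of 0.1. Over the alternatives tried the difference stayed negative, from -0.94 without SNHG10 replicate 3 to -0.46 with a pseudocount of 5, and the adjusted p ran from 0.868 to 0.929.

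FOSL1 (chromosome 11, 65659520 to 65668044, minus strand), which encodes FRA-1, a FOS protein without the strong activation domain and often high in invasive cancer cells, read 131, 186 and 228 FPKM with SNHG10 probes. With LacZ probes it read 243, 260 and 198 FPKM. The sets overlapped, because SNHG10 replicate 3 lay above LacZ replicate 3, and the log2 difference was -0.39 ± 0.21 (95% interval -0.87 to 0.09; limma adjusted p = 0.907). Without SNHG10 replicate 1 it was -0.18, and without SNHG10 replicate 3 it was -0.57. FOSL2 (chromosome 2, 28615669 to 28640179, plus strand), which encodes the related FRA-2, read 40.0, 46.7 and 47.7 FPKM against 44.0, 52.4 and 48.9. Its difference was -0.11 ± 0.15 (limma adjusted p = 0.941), with an SD within a probe set of 0.13. That small difference ran from -0.18 without LacZ replicate 1 to -0.03 without SNHG10 replicate 1, and was -0.05 without LacZ replicate 2 or after median-ratio scaling.

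FOS itself, the classic immediate early partner of JUN and not one of the 10 genes, was low and scattered. It read 8.68, 1.76 and 13.1 FPKM in the SNHG10 libraries, against 11.7, 6.28 and 31.9 in the LacZ libraries, spread over 5 listed transcripts of which none was above 0 in all libraries. The log2 difference was -1.01 ± 0.72 (limma adjusted p = 0.928), and it was -0.31 without SNHG10 replicate 2 and -0.41 without LacZ replicate 3. LacZ replicate 3, the library with the highest JUN and JUNB and the lowest JUND, also had the highest FOS. FOSL1 made up 71.1%, 78.2% and 77.2% of the summed FPKM of FOS, FOSB, FOSL1 and FOSL2 in the SNHG10 libraries, against 79.0%, 79.3% and 69.2% in the LacZ libraries (exact permutation p = 0.8). FOSL2 made up 21.6%, 19.7% and 16.2% against 14.3%, 15.97% and 17.1% (exact p = 0.2). The sum of these 4 genes was 239 ± 55.0 FPKM in the SNHG10 libraries, against 307 ± 20.9 in the LacZ libraries (SD, n = 3 each; exact permutation p = 0.2). FOSB per FOSL2 did not overlap between the sets, at 11.9%, 6.89% and 13.9% against 19.9%, 17.7% and 15.1% (exact permutation p = 0.1). Since FOSB itself did not overlap, this ratio is not a result apart from it.

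**Figure D2:**
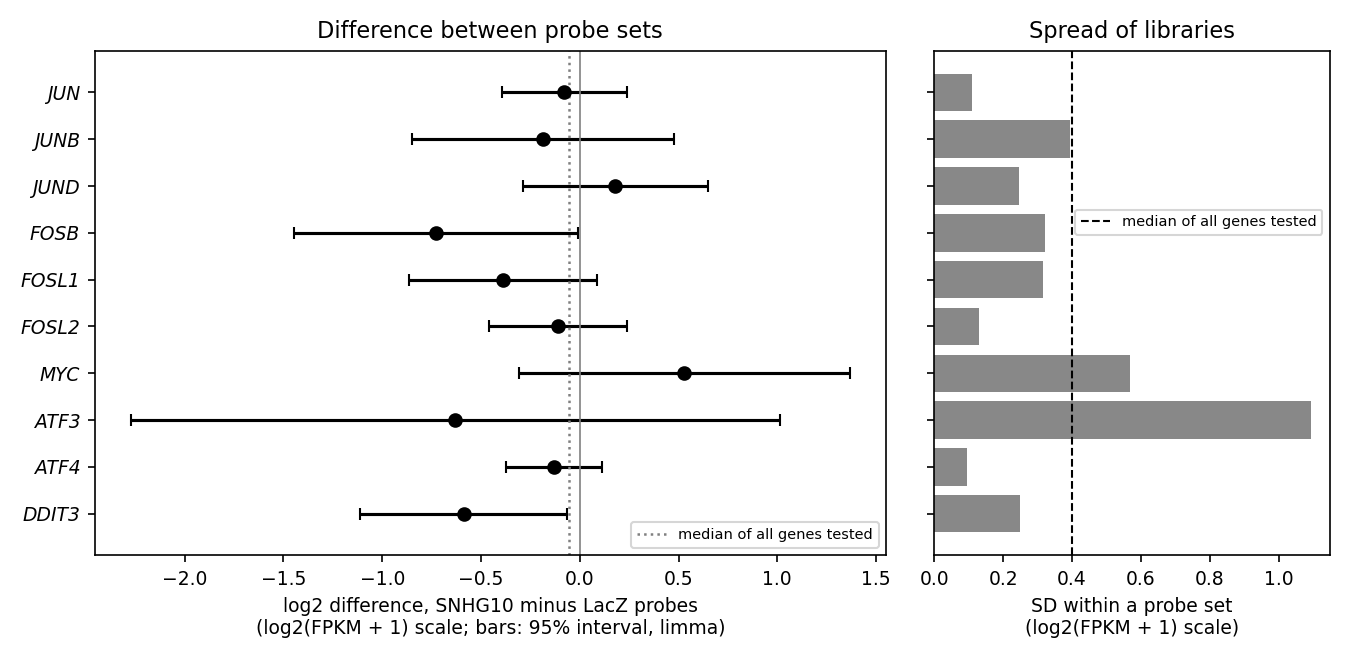
Left, log2 difference of each mRNA (SNHG10 minus LacZ probes, log2(FPKM + 1) scale) with its 95% interval from limma, and the median of all genes tested as a dotted line. Right, the SD of the libraries within a probe set, with the median of all genes tested (0.40) dashed; JUN, FOSL2 and ATF4 lie at 0.11, 0.13 and 0.10, MYC at 0.57 and ATF3 at 1.09.

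MYC (chromosome 8, 128747680 to 128753680, plus strand) had the largest positive difference of the 10, and its libraries overlapped. It read 40.6, 67.6 and 42.5 FPKM in the SNHG10 libraries, against 22.5, 58.5 and 28.5 in the LacZ libraries. Replicate 2 was the highest of its set with both probe sets. The log2 difference was 0.53 ± 0.36 (95% interval -0.31 to 1.37; limma adjusted p = 0.928; exact permutation p = 0.4). Leaving out 1 library at a time gave 0.25 without LacZ replicate 1 and 0.92 without LacZ replicate 2, and 0.30 without SNHG10 replicate 2. With an SD of 0.57 within a probe set, MYC varied more than 70.6% of the genes tested.

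ATF4 (chromosome 22, 39916569 to 39918690, plus strand), the central factor of the integrated stress response and controlled largely at translation, had the smallest SD within a probe set of the 10 mRNAs. It read 180, 178 and 204 FPKM in the SNHG10 libraries, against 197, 199 and 219 in the LacZ libraries, overlapping at SNHG10 replicate 3. The log2 difference was -0.13 ± 0.10 (95% interval -0.37 to 0.11; limma adjusted p = 0.928), and it was -0.08 without LacZ replicate 3 and -0.07 after median-ratio scaling. That SD was 0.10 (log2). ATF4 has processed pseudogene copies, so reads could be shared with them.

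DDIT3 (chromosome 12, 57910371 to 57914300, minus strand) read 13.2, 17.99 and 13.9 FPKM in the SNHG10 libraries, against 19.9, 28.5 and 21.0 in the LacZ libraries. All 3 SNHG10 libraries lay below all 3 LacZ libraries, with 17.99 and 19.9 as the nearest values. The log2 difference was -0.59 ± 0.23 (95% interval -1.11 to -0.06), with an unadjusted p of 0.0328, rank 373 of the genes tested, an adjusted p of 0.885 by limma and an exact permutation p of 0.1. It stayed negative in the alternatives tried, from -0.72 to -0.43, with adjusted p from 0.872 to 0.929. The last 68 bases of DDIT3 overlap MARS, a methionyl-tRNA synthetase gene on the other strand that read 89.9, 98.0 and 87.6 FPKM against 109, 84.8 and 107. No strand setting was stated, so reads there cannot be told apart.

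ATF3 (chromosome 1, 212781970 to 212794119, plus strand), a repressor induced by many stresses, was listed at 0 in SNHG10 replicate 1 and read 5.15 and 3.08 FPKM in SNHG10 replicates 2 and 3. With LacZ probes it read 5.88, 1.64 and 4.12. The sets overlapped, the log2 difference was -0.63 ± 0.71 (limma adjusted p = 0.933), and it turned to 0.15 without SNHG10 replicate 1. Without LacZ replicate 1 it was -0.33. With so low a level it was -1.57 with a pseudocount of 0.1 and -0.23 with a pseudocount of 5. DDIT3 stood at 7.32%, 10.1% and 6.78% of the ATF4 level in the SNHG10 libraries, against 10.1%, 14.3% and 9.60% in the LacZ libraries (exact permutation p = 0.2). The sum of ATF4, ATF3 and DDIT3 was 193, 201 and 221 FPKM against 223, 229 and 244. These sums did not overlap, by 221 to 223 at the nearest (exact permutation p = 0.1), and ATF4 made up 86.9% or more of each. Median-ratio factors ran from 0.9884 to 1.014 in the SNHG10 libraries, against 1.028 to 1.0531 in the LacZ libraries. That scaling was not applied to these sums, and the gap does not outlast it. Divided by its factor of 1.014, the sum of SNHG10 replicate 3 lies above that of LacZ replicate 1 divided by 1.028.

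Of the 28 transcript rows 22 passed the filter, and none was called by limma over 16618 rows (adjusted p 0.775 to 0.998), where 0.0481% were called higher and 0.0421% lower. In 3 of the 22 the probe sets did not overlap (13.6%), against 10.5% of all rows, 4.48% higher and 6.06% lower. FOSB-201 and MYC-204 were lower and MYC-207 higher with SNHG10 probes. MYC-204 read 5.34, 0 and 5.54 FPKM against 8.44, 13.8 and 6.10, and MYC-207 3.83, 3.59 and 3.22 against 1.30, 0.947 and 2.92. MYC-202, the MYC row with the highest SNHG10 mean, read 10.6, 31.2 and 19.3 against 2.71, 18.6 and 0.424 (log2 difference 2.06 ± 0.97, limma adjusted p = 0.951). The difference was 1.203 without LacZ replicate 3, 3.09 without LacZ replicate 2 and 1.26 with a pseudocount of 5. Its share of the MYC sum ran from 26% to 46.2% in the SNHG10 libraries, against from 1.5% to 31.7% in the LacZ libraries.

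ATF4-201 and ATF4-202 share their start and end 2 bases apart (39918688 and 39918690). ATF4-202 held 90.4%, 48.4% and 94.9% of the ATF4 sum in the SNHG10 libraries, against 91.5%, 95.1% and 94.8% in the LacZ libraries. In SNHG10 replicate 2 alone the rows were near even, at 91.9 FPKM for ATF4-201 and 86.3 for ATF4-202, while the sum in that library, 178, was close to the 180 of SNHG10 replicate 1. FOSL1-204 was listed at 0 in SNHG10 replicate 1 and read 33.4 and 82.8 in SNHG10 replicates 2 and 3, against 60.1, 107 and 63.9 with LacZ probes. The main row FOSL1-201 read 104, 103 and 87.2 against 127, 88.1 and 101. As listed, the low FOSL1 sum of SNHG10 replicate 1 thus lay in FOSL1-204 and FOSL1-203. FOSL1-203 read 25.3 FPKM there, against 45.9 and 48.9 in SNHG10 replicates 2 and 3. The FOSL1 rows overlap along the gene, so this split rests on how reads were divided, and the 0 may be a failed estimate.

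In DDIT3, DDIT3-201 read 8.27, 0 and 0 FPKM in the SNHG10 libraries, against 7.83, 19.0 and 15.5 in the LacZ libraries (log2 difference -2.77 ± 0.95, limma unadjusted p = 0.0254, adjusted p = 0.775). It was the only member row with an unadjusted p under 0.05, against 5.66% of all rows, 2.59% higher and 3.06% lower. With the replicate block its unadjusted limma p was 0.052, and the difference was -4.93 with a pseudocount of 0.1 and -1.42 with a pseudocount of 5. DDIT3-205 read 0, 8.36 and 9.79 against 7.62, 0 and 4.21, and DDIT3-202 4.90, 9.63 and 4.07 against 4.46, 9.51 and 1.24. These rows overlap along the gene, so how reads were divided among them was the authors' estimate. ATF3 was carried by ATF3-202 in both SNHG10 libraries above 0 and in LacZ replicate 2, by ATF3-211 in LacZ replicate 1, and by ATF3-202 and ATF3-204 in LacZ replicate 3. FOSL2-201 held 89.5% to 95% of FOSL2 in the SNHG10 libraries, against 98.1% to 99.7% in the LacZ libraries. The rest lay in FOSL2-202 and FOSL2-203, low rows that did not pass the filter. FOSL2-202 read 5.015 FPKM in SNHG10 replicate 3 and was listed at 0 in 4 libraries, and FOSL2-203 read 0 to 3.23 FPKM.

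**Figure D3:**
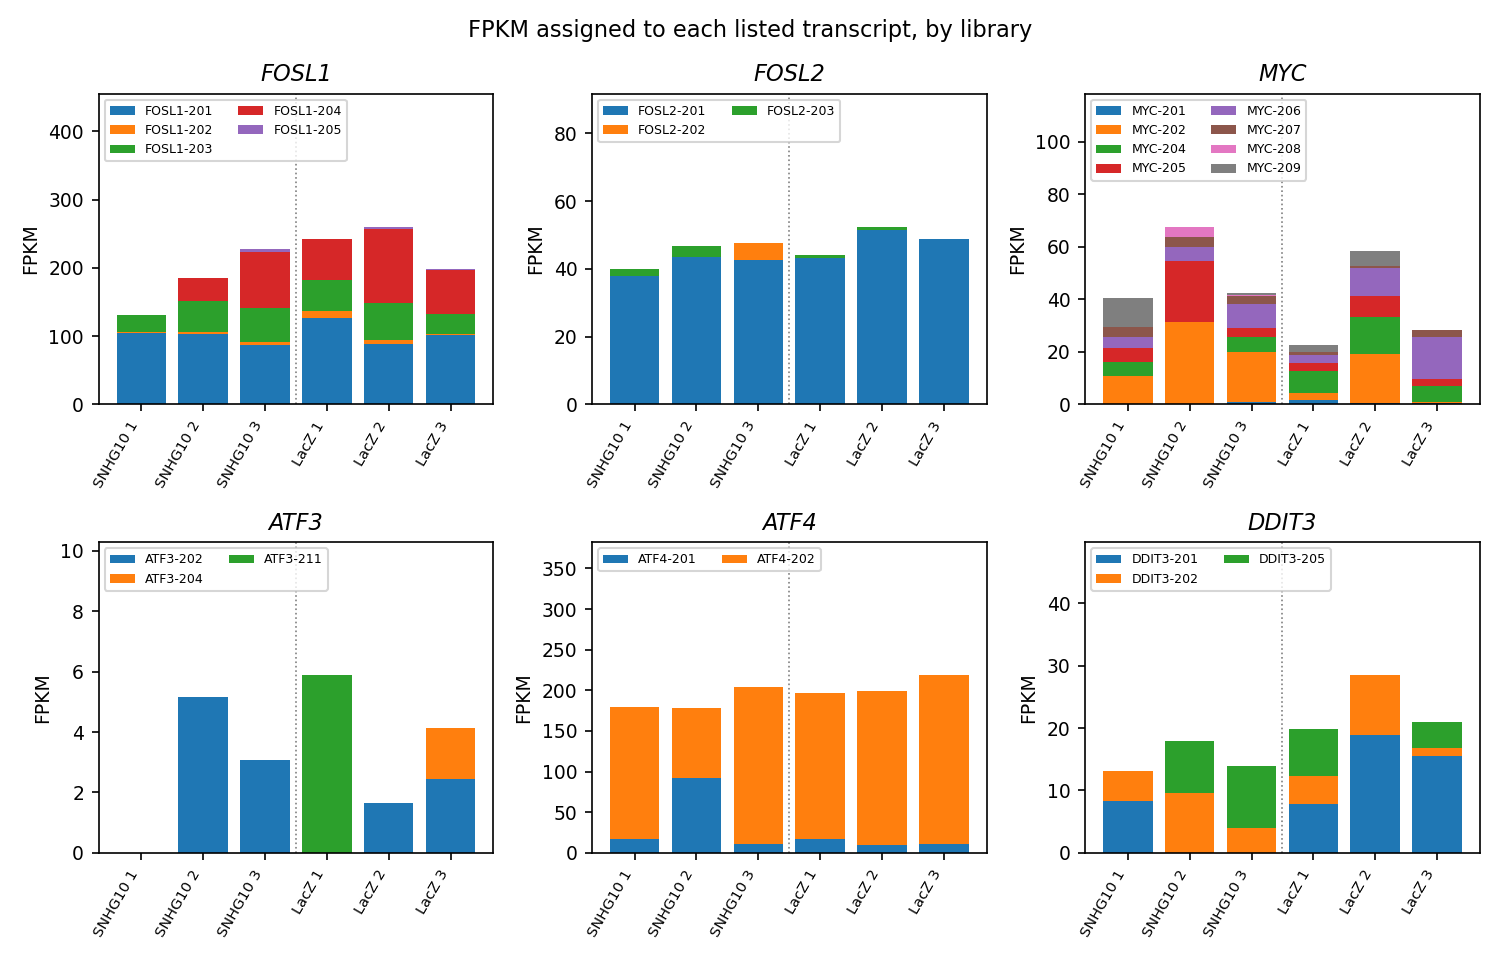
FPKM of each listed transcript, stacked to the gene sum, in the 3 SNHG10-probe libraries (left of the dotted line) and the 3 LacZ-probe libraries for the 6 genes with several listed transcripts. In ATF4 the split of SNHG10 replicate 2 stands apart, with ATF4-201 at 51.6% of the sum, while FOSL2-201 holds 89.5% or more of FOSL2 in every library.

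The 10 mRNAs did not move as one block from library to library. Over the 6 libraries, the 45 pairs had a median Pearson r of 0.00931 on log2(FPKM + 1), with 23 positive and 22 negative. All 53081056 pairs of genes tested had a median of 0 and 50.4% positive. One pair of members (2.22%) reached 0.8, against 2.98% of all pairs, and none reached -0.8, against 2.66%. No pair passed adjustment over the 45 (smallest adjusted permutation p of 0.738 for r and of 1 for Spearman's rho). These libraries share the scaling of FPKM to each library's total.

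JUN and JUNB were the pair with the highest r, 0.89 (exact permutation p = 0.0306, adjusted 0.738; rho 0.60, p = 0.242). It was 0.95 without LacZ replicate 3 and SNHG10 replicate 2, the libraries farthest from the JUN median, and 0.88 on deviations from the mean of each probe set. FOSL1 and FOSL2 followed at 0.75 (exact p = 0.0917; rho 0.60, p = 0.242), and FOSL2 and DDIT3 at 0.74 (exact p = 0.0861; rho 0.77, p = 0.103). Both changed sign without LacZ replicate 2 and SNHG10 replicate 1, the libraries farthest from the first gene's median, to -0.59 and -0.17. On deviations from probe set means they were 0.67 and 0.71. The lowest r were those of JUND, with JUNB at -0.72 (exact p = 0.140; rho -0.26, p = 0.658), with JUN at -0.70 (exact p = 0.178; rho -0.03, p = 1) and with ATF4 at -0.67 (exact p = 0.129; rho -0.37, p = 0.497). All 3 changed sign without LacZ replicate 3, where JUND was lowest, and 1 other library, to 0.49, 0.81 and 0.86. LacZ replicate 3 was not left out alone, and on deviations from probe set means they were -0.69, -0.64 and -0.58. On such deviations MYC and DDIT3 had the highest r of the 45 pairs, 0.98, against 0.08 without that step. Both genes were highest in replicate 2 of each probe set. JUNB and FOSL1 had the lowest, -0.83. The r of deviations were not tested or set against all gene pairs.

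**Figure D4:**
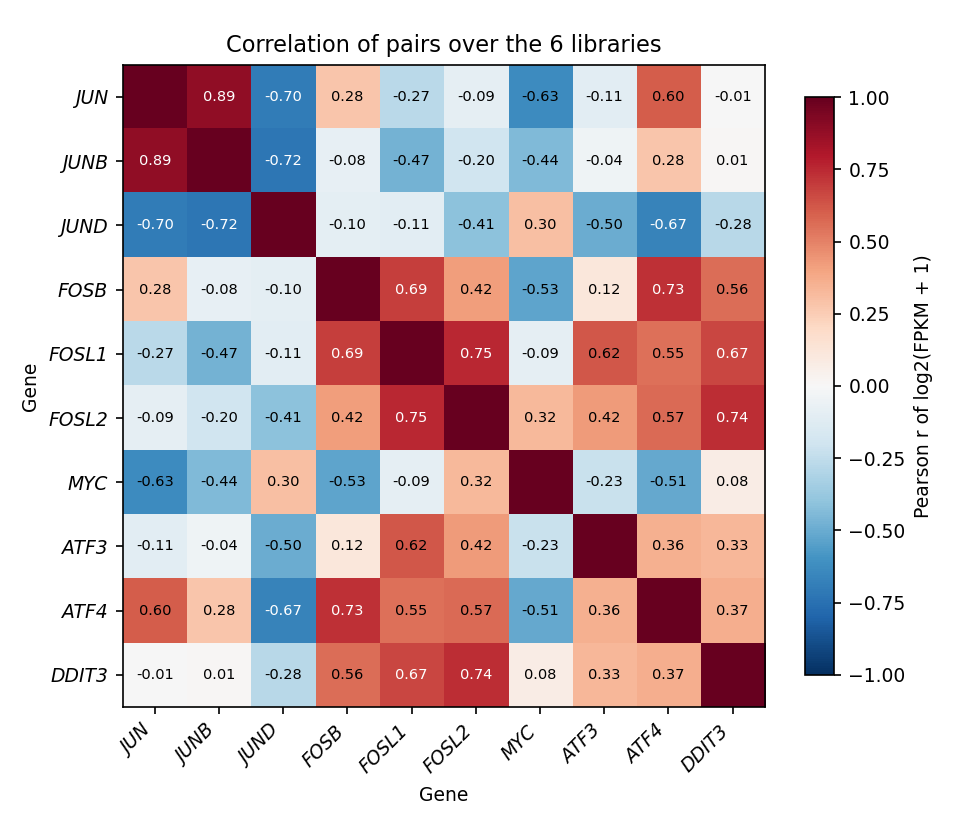
Pearson r of log2(FPKM + 1) over the 6 libraries for each pair of the 10 mRNAs, in red where positive and blue where negative. The JUN and JUNB cell (0.89) is the highest and the JUNB and JUND cell (-0.72) the lowest; none passed adjustment over the 45 pairs.

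Genes whose pattern over the 6 libraries was most like that of the leading member of each role were picked by Pearson r among all genes tested. For JUN they were ERC1 (0.99) and BACH1 (0.98), for FOSL1 BAIAP2 (0.996) and GPR108 (0.99), for MYC TIAM2 (0.99), and for ATF4 ELAVL1 (0.99) and IMPACT (0.99). IMPACT read 0, 0 and 3.52 FPKM with SNHG10 probes against 2.65, 3.28 and 8.64 with LacZ probes, so its r leans on zeros of a low gene. BACH1 read 15.4, 9.04 and 11.6 FPKM in the SNHG10 libraries, against 10.4, 10.6 and 27.4 in the LacZ libraries. That it peaked in LacZ replicate 3, as JUN did, follows from how it was picked and is no separate result. With 6 libraries, 19 to 40 genes (0.184% to 0.388%) reached an r of 0.95 with each of these 4 members.

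Genes around the 10 factors were read from 9 lists of partners, kinases and targets, 168 tested genes in all. None passed in either direction. The smallest limma adjusted p was 0.875, 6 genes (3.6%) had an unadjusted p under 0.05, and 13 did not overlap (4 higher and 9 lower with SNHG10 probes, 7.7% together). Over all genes these shares were 5.42% and 11.4%. Their median log2 difference was -0.07, against -0.05 for all genes.

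Of 28 other bZIP genes tested, 9 had a positive and 19 a negative difference (median -0.12). MAFF, a small MAF protein, read 5.34, 5.04 and 6.10 FPKM with SNHG10 probes against 9.97, 5.72 and 12.2 with LacZ probes. BATF3 read 2.18, 0 and 6.89 against 10.5, 5.05 and 4.56, and ATF7 5.35, 11.8 and 8.91 against 9.91, 15.0 and 13.9. Of 12 kinases upstream of AP-1, 2 were positive and 10 negative (median -0.17). MAPK8, which encodes the JUN kinase JNK1, read 9.87, 4.75 and 5.35 against 6.43, 7.07 and 18.1, and MAP2K7 10.5, 9.32 and 7.97 against 8.85, 5.05 and 9.41. MAPK8 was highest in LacZ replicate 3, as JUN and JUNB were. Of the 10 members 3 were highest in that library and 4 in LacZ replicate 2, and the share of all genes was not counted.

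Of 25 other immediate early genes, 15 were positive and 10 negative (median 0.13). KLF2 read 24.5, 22.0 and 16.03 FPKM with SNHG10 probes against 11.7, 19.4 and 14.3 with LacZ probes, and TRIB1 6.83, 4.09 and 5.16 against 3.41, 3.07 and 4.34. Of 14 AP-1 target genes, 3 were positive and 11 negative (median -0.08). PLAU, the urokinase gene, read 90.2, 75.4 and 90.0 against 101, 106 and 112 and did not overlap (log2 difference -0.32 ± 0.13, limma adjusted p = 0.885). The cytokine LIF read 16.5, 18.2 and 16.7 against 17.9, 26.3 and 28.2, and the chemokine CXCL8 30.4, 19.3 and 19.5 against 24.5, 31.4 and 54.8.

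Of 14 genes of the MYC network, 3 were positive and 11 negative (median -0.16). MAX, the obligate partner of MYC, read 34.5, 19.6 and 26.5 FPKM with SNHG10 probes against 29.2, 32.5 and 38.6 with LacZ probes. MGA, which competes for MAX, read 3.99, 4.92 and 5.18 against 5.87, 5.94 and 5.79, and MLX 19.0, 24.8 and 29.3 against 35.6, 20.5 and 32.9. Of 24 MYC target genes, 9 were positive and 15 negative (median -0.05). NOP56, a core snoRNP protein, was higher in every SNHG10 library (26.6, 26.3 and 24.5 against 21.9, 16.002 and 16.1) and PPAN, a ribosome biogenesis factor, lower (0, 6.61 and 7.91 against 14.0, 25.99 and 29.2), both with a limma adjusted p of 0.885. PPAN shares sequence with a readthrough transcript, so its values are uncertain. SHMT2, of mitochondrial serine use, read 52.1, 63.6 and 47.0 against 28.4, 40.0 and 52.5.

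Of 13 eIF2 kinases, eIF2B subunits and phosphatase subunits, 4 were positive and 9 negative (median -0.22). EIF2B2 read 3.42, 2.54 and 3.67 FPKM with SNHG10 probes against 7.81, 3.35 and 8.14 with LacZ probes, EIF2B1 15.4, 17.99 and 13.3 against 17.2, 23.1 and 21.3, and the heme-regulated kinase EIF2AK1 17.8, 11.9 and 13.4 against 16.7, 17.5 and 21.1. Of 25 ATF4 and CHOP target genes, 9 were positive and 16 negative (median -0.12). They went both ways: SLC3A2, a subunit of amino acid transporters, read 75.7, 113 and 70.5 against 53.9, 54.7 and 63.1, without overlap. WARS, a tryptophanyl-tRNA synthetase, read 25.4, 34.3 and 25.4 against 34.8, 39.7 and 34.4, also without overlap, and PCK2 27.5, 19.3 and 13.3 against 41.5, 33.5 and 25.7. Of 17 endoplasmic reticulum chaperone and unfolded protein response genes, 10 were positive and 7 negative (median 0.01). CANX, a lectin chaperone, read 104, 77.4 and 77.2 against 137, 126 and 112 (log2 difference -0.54 ± 0.16, limma adjusted p = 0.875), DNAJB9 3.69, 3.40 and 1.42 against 1.07, 0 and 3.32, and DNAJB11 3.07, 7.63 and 6.94 against 9.64, 5.40 and 9.08.

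**Figure D5:**
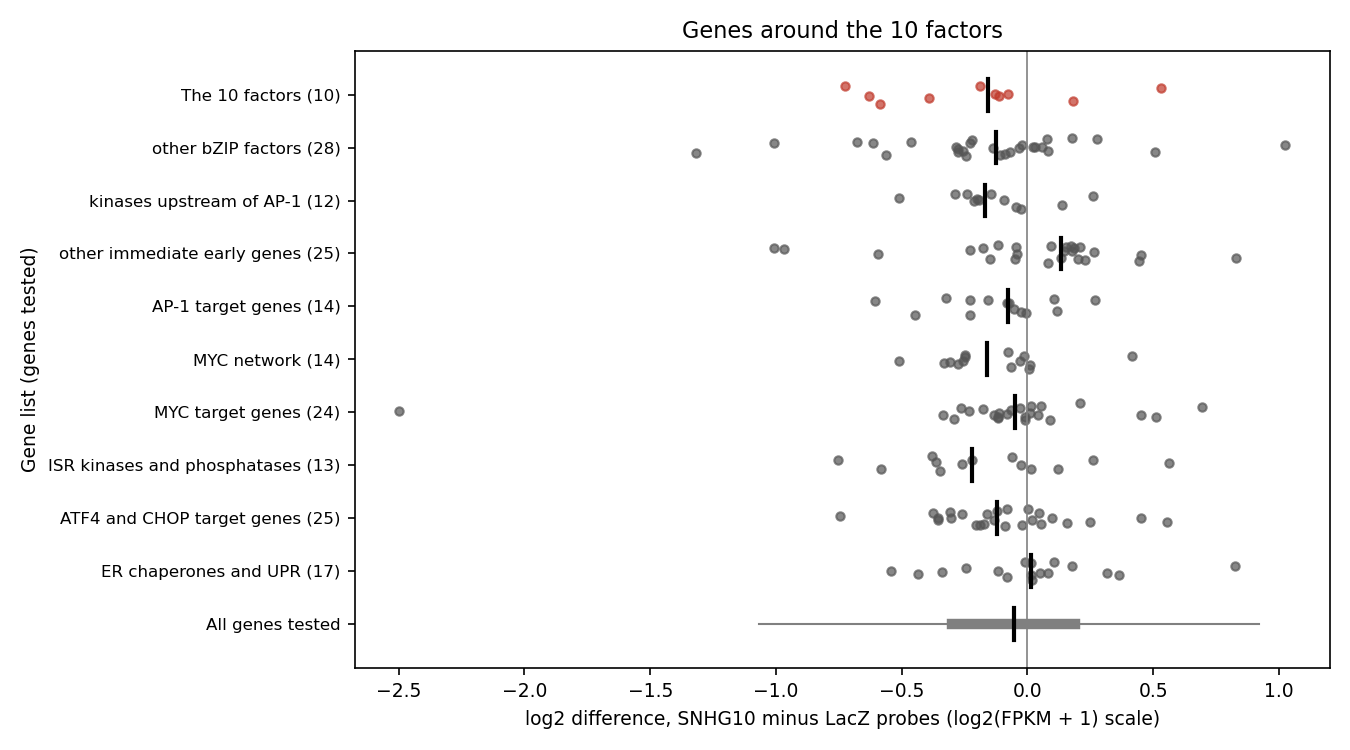
log2 difference (SNHG10 minus LacZ probes, log2(FPKM + 1) scale) of each tested gene, 1 point per gene, for the 10 factors and 9 lists of related genes, with medians as black ticks. The bottom line gives all genes tested, with the thick bar from -0.30 to 0.19 (25th to 75th percentile) and the thin line from -1.07 to 0.92 (central 95% of genes); the points of every list spread around 0, and none of the genes passed the test.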

How the data were processed

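Each library had a table of FPKM per transcript, deposited by the authors and named so in the file headers. Bowtie2 2.1.0 and hg19 are named in the submitters' processing notes, and the program behind the FPKM is not given in the sources used here. FPKM were added over the transcripts of a symbol. Genes (10304) and transcript rows (16618) with at least 1 FPKM in 3 or more libraries were fitted on log2(FPKM + 1) with limma 3.58.1 (R 4.3.3, intensity trend, no covariate), adjusted over all of them at 0.05. Single values had a two-sided exact permutation test (scipy 1.17.1), and pairs of members an exact test over 720 pairings. The fit was tested on simulated data. The 10 members and the lists were chosen with earlier results of these data known. Named were all members, the 3 smallest unadjusted p of each list, the 3 highest and lowest r, and the 2 genes most like the leading member of a role. A few of the genes so picked were left out of the text. Motifs were read in RefSeq windows of GRCh38.p14, whose coordinates differ from hg19. Other settings tried were leaving out each library, a replicate block, filters, scalings, pseudocounts of 0.1 and 5, no trend and robust eBayes.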

Additional observations from a re-analysis of the deposited data

How the results depend on the processing

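None of the 10 members was called under any of the 15 alternatives, and the log2 differences of FOSB, FOSL1, FOSL2, MYC, ATF4 and DDIT3 kept their sign in all of them. ATF3 was not tested with at least 5 FPKM. Genes called over the whole table numbered 0 higher and 0 lower in all but 2 leave-one-out runs (range 0 to 1 each): RRM1 was lower without SNHG10 replicate 1 (adjusted p = 0.0346 by limma) and HIST2H4B higher without LacZ replicate 2 (0.00181). Transcript rows called, 8 higher and 7 lower and none of a member, became 3 and 3 with no filter or with at least 5 FPKM, 3 and 2 with a pseudocount of 0.1 or of 5, and 26 and 27 without trend. They were 0 and 0 in every leave-one-out run and under the replicate block. The cause was not tested. Deviations of same-numbered libraries correlated at r of 0.0151, 0.0121 and 0.0161, all below 0.1, and the main fit did not pair these libraries. Every library had its highest r with its own number, but values so near 0 cannot decide on pairing. Whether the replicate numbers pair the libraries was therefore not settled. With the block the smallest adjusted p of a member was 0.886.

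Over leave-one-out runs JUN ranged from -0.1272 to 0.0001, JUNB from -0.374 to 0.0847, JUND from -0.0092 to 0.2832 and ATF3 from -1.1656 to 0.1453. Transcript rows that turned were FOSL1-201 (-0.2103 to 0.0508), FOSL1-203 (-0.357 to 0.1803), FOSL1-205 (-0.9919 to 0.2349), ATF3-202 (-0.0472 to 1.2636), DDIT3-202 (-0.1501 to 0.9655), DDIT3-205 (-0.5252 to 1.4993) and MYC-209 (-1.0895 to 0.7171, and 0.0762 with a pseudocount of 5). Without the 2 libraries farthest from the median of the first gene, r turned to -0.5854 for FOSL1 and FOSL2, -0.1726 for FOSL2 and DDIT3, 0.8562 for JUND and ATF4, 0.8094 for JUN and JUND and 0.4882 for JUNB and JUND. Of 899 alternative values 848 kept direction and call, or a similar count. Unknown depth limits what the low values of FOSB and ATF3 can show.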
